A study of Mus musculus with 2 samples.

Results

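Cell cycle and DNA replication genes are described here in naive gamma/delta T cells against naive CD8+ alpha/beta T cells. The 38 genes were chosen by name as cyclins, cyclin-dependent kinases, replication enzymes and mitotic regulators, and every probe set to which the platform annotation gives 1 of these symbols and no other was taken. This gave 87 probe sets for 37 of the 38 genes, out of 34945 such probe sets and 18193 genes on the array. Ccnb1, which encodes cyclin B1, had no such probe set and was not analysed here. The gamma/delta cells were labelled naive and CD44-, and the alpha/beta cells naive and CD8+. Lymph nodes of C57BL/6 mice were the source of both, and both were isolated by negative selection, which removes other cells and leaves the wanted ones without bound antibody. Each group is 1 preparation on 1 Affymetrix MOE430 2.0 array, and the labels give no genetic change, treatment, age or number of mice for either group. A single array per group allows no test, SD or p-value, and each ratio compares these 2 preparations.

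A cell that commits to division passes through G1, copies its DNA in S phase and separates the copies in mitosis. Cyclins D with Cdk4 or Cdk6 act in G1. Cyclin E with Cdk2 acts at the entry to S phase, where E2F transcription factors switch on the genes of replication. Genes of mitosis are switched on later, through a promoter element called the cell cycle genes homology region (CHR) and through CCAAT boxes, which bind the factor NF-Y. Naive T cells circulate in a resting state, and most of them enter the cycle only after antigen contact.

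Promoter windows are shown first, because replication and mitotic genes are known to differ in these elements. RefSeq windows of build GRCm38.p6, from 250 bases before the start site to 50 after it, were found for 31 of the 38 genes. Mcm6 and Mcm3 are printed as the 2 replication genes that differed most among those above the floor on both arrays, Pcna as a replication gene without an E2F motif, and Ccnb2 as a mitotic gene. Capitals mark matches on either strand to E2F motifs (TTTCCCGC, TTTCGCGC, TTTGCCGC or TTTGGCGC), the CHR (TTTGAA or TTCGAA) and the CCAAT box (CCAAT). The windows lie at chr1:128359656-128359955 for Mcm6, chr1:20820263-20820562 for Mcm3, chr2:132253131-132253430 for Pcna and chr9:70421505-70421804 for Ccnb2, all on the minus strand.
Mcm6: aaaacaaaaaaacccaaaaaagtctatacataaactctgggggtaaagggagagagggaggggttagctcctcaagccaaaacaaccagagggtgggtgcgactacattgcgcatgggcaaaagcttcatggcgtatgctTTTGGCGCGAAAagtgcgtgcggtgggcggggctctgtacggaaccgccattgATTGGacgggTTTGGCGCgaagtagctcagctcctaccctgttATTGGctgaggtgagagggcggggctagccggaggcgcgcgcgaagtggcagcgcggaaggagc
Mcm3: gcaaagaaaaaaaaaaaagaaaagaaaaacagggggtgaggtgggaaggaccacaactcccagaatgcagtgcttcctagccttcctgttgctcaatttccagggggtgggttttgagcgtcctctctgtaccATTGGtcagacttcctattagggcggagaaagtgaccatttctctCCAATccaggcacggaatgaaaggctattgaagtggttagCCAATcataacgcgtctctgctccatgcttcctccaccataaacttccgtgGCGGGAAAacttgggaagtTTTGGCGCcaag
Pcna: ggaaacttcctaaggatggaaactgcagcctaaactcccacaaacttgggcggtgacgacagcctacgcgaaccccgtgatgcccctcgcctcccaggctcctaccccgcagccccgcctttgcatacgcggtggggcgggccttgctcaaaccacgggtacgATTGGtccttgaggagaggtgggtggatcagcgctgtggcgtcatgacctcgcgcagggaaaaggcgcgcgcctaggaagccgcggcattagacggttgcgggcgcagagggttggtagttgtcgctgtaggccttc
Ccnb2: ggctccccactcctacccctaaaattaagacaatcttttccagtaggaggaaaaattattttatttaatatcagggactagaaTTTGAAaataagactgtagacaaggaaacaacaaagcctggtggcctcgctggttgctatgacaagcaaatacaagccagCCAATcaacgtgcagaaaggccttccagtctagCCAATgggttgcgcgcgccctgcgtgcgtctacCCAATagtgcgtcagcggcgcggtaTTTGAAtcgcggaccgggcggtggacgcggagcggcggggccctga
With the first transcribed base as 1, the E2F matches of Mcm6 begin at -110, -106 and -47, the first pair on opposite strands and overlapping, and those of Mcm3 at 20 and 39, after the start site. The CHR matches of Ccnb2 begin at -167 and 5, and its CCAAT boxes at -87, -54 and -21. The Pcna window held a CCAAT box at -87 and neither of the other motifs.

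E2F and CHR motifs were spread unequally over the roles. An E2F motif was found in 8 of 18 replication genes with a window (44.4%), in 1 of 10 mitotic genes (Cdk1) and in 2.26% of all 32851 windows. A CHR motif was found in 4 of 18 replication genes (22.2%), in 8 of 10 mitotic genes (80%) and in 19.2% of all windows. A CCAAT box was found in 13 of 18 replication genes, in 9 of 10 mitotic genes and in 37.4% of all windows. Some genes have more than 1 window, and counted by gene the shares over all 27025 genes were 2.60% for E2F, 21.7% for the CHR and 41.1% for the CCAAT box. A match describes the letters of a window and does not show a site that is bound.

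**Figure D1:**
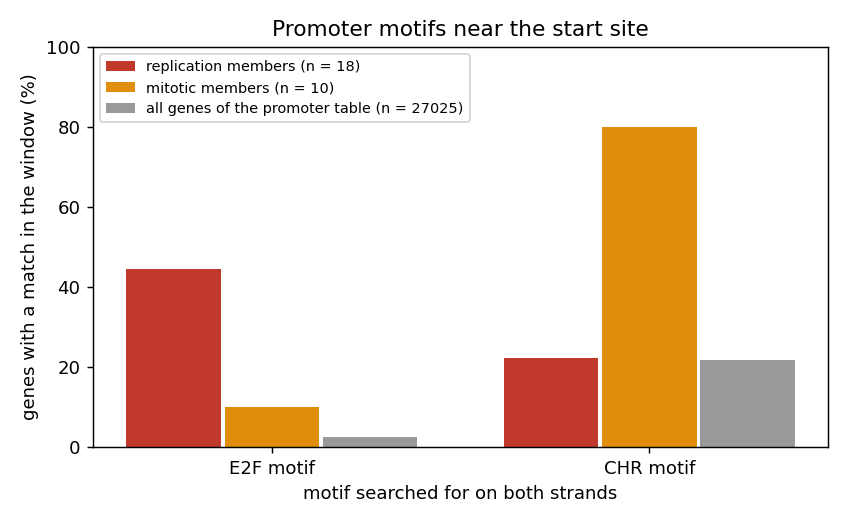
Share of genes, in percent, with an E2F or a CHR motif in the promoter window, for the 18 replication members, the 10 mitotic members and the 27025 genes of the promoter table. The E2F bar is highest for replication members at 44.4% and the CHR bar for mitotic members at 80%.

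The values are MAS5 signals on a linear scale. The floor was set at a signal of 243.3, the higher of the arrays' medians, and signals below it were set to it for the log2 ratio, which is gamma/delta over alpha/beta. A gene above the floor on 1 array has only a bound, a gene below it on both has no ratio, and a gene was called at 2-fold or more. Each gene took the probe set whose mean log2 signal over both arrays was highest. Of the gamma/delta markers with a probe set, 4 of 4 were above the floor in gamma/delta cells and 0 of 4 in CD8+ alpha/beta cells. All 4 genes listed as CD8+ alpha/beta markers were above the floor on both arrays, with sums of 74236.7 in gamma/delta and 59131.7 in CD8+ alpha/beta cells. Cd8a was 12.1-fold lower in gamma/delta cells, with signals of 731.1 in gamma/delta and 8852.4 in CD8+ alpha/beta cells. Its 5 probe sets had log2 ratios from -3.60 to -1.19. Cd8b1 of this list was at -2.52, Cd3d at -0.03 and Cd3e, on the opposite side of 0, at 0.80. Signals of the same gene in these bulk preparations cannot tell fewer cycling cells from less RNA per cell.

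Other cell types were checked by their markers. Of 6 measured B cell markers, 3 were above the floor in gamma/delta cells (summed signal 1793.7) and 2 in CD8+ alpha/beta cells (sum 1446.7), and Cd79a was under the floor on both. Of 4 germinal centre or plasma cell markers, 4 were above it in gamma/delta cells (sum 2276.4) and 3 in CD8+ alpha/beta cells (sum 1330.9). Sdc1 and Xbp1 passed the call on the higher side, by at least 3.37-fold and by 2.27-fold. All 4 probe sets of Xbp1 lay above 0, but those of Sdc1 were split, 3 above and 1 below at -0.14. Jchain was on the higher side too, at a log2 ratio of 0.55. Prdm1, above the floor on both arrays, ran the opposite way (log2 ratio -0.72), with 343.5 in gamma/delta and 566.0 in CD8+ alpha/beta cells. Of 5 thymocyte stage markers, 2 were above it in gamma/delta cells (sum 33564.2, most of it Dntt) and 3 in CD8+ alpha/beta cells (sum 2239.3), and Rag1 and Rag2 were under the floor on both arrays. Of 6 myeloid and dendritic markers, 1 was above it in gamma/delta cells (sum 1183.2) and 2 in CD8+ alpha/beta cells (sum 893.9). Of 5 stromal and endothelial markers, 3 were above it in gamma/delta cells (sum 1978.4) and 2 in CD8+ alpha/beta cells (sum 1474.9). Col1a2 of this list had 1 probe set above 0 and 2 below. The marker sums include signals under the floor, so their order alone does not show more of a cell type. The 3 NK, 2 erythroid and 2 CD4 T cell markers measured lay under the floor on both arrays. Actin gave 6.99 times as much 3′ as 5′ signal in gamma/delta cells and 3.12 times in CD8+ alpha/beta cells, a gauge of how intact the RNA was. Gapdh gave 3.06 times in gamma/delta and 3.24 times in CD8+ alpha/beta cells. The part of other cells and of RNA integrity in the cell cycle values was not tested.

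Of the chosen members, most replication genes had ratios below 0 and mitotic genes were split, with few past 2-fold. Among further replication genes with a ratio, 17 of 28 were above 0. Of 21 replication genes 17 had a ratio, of which 12 were below 0 and 5 above, with a median log2 ratio of -0.33. Of 12 mitotic genes 8 had a ratio, of which 3 were below 0 and 5 above, with a median of 0.14. Of the 5, Bub1 was at 0.02, and both Bub1 and Top2a were below 0 with probe sets averaged. Over all 11914 genes with a ratio the median was 0.03, with 47.6% below 0 and 52.4% above. The 8 mitotic genes had 37.5% below 0 and 62.5% above. The 4 G1 cyclins and kinases were all slightly higher in gamma/delta cells by the probe sets used, and among members above the floor on both arrays the largest single difference was in Stmn1, lower in gamma/delta cells.

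The 2-fold call was met by 4 of the 30 members with a ratio, all lower in gamma/delta cells (13.3%), while 3.93% of all genes with a ratio were called lower. None of the 30 was called higher, against 5.82% of all genes. The 4 were Stmn1, Ccna2, Mcm6 and Mcm3. Stmn1 belongs to neither class, Ccna2 to the mitotic class, and the MCM genes to the replication class. Of the 37 measured members, 7 were below the floor on each array, and 4 of the 30 ratios are bounds. The members were named with earlier results of these arrays known, so these shares are a description and no independent evidence.

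**Figure D2:**
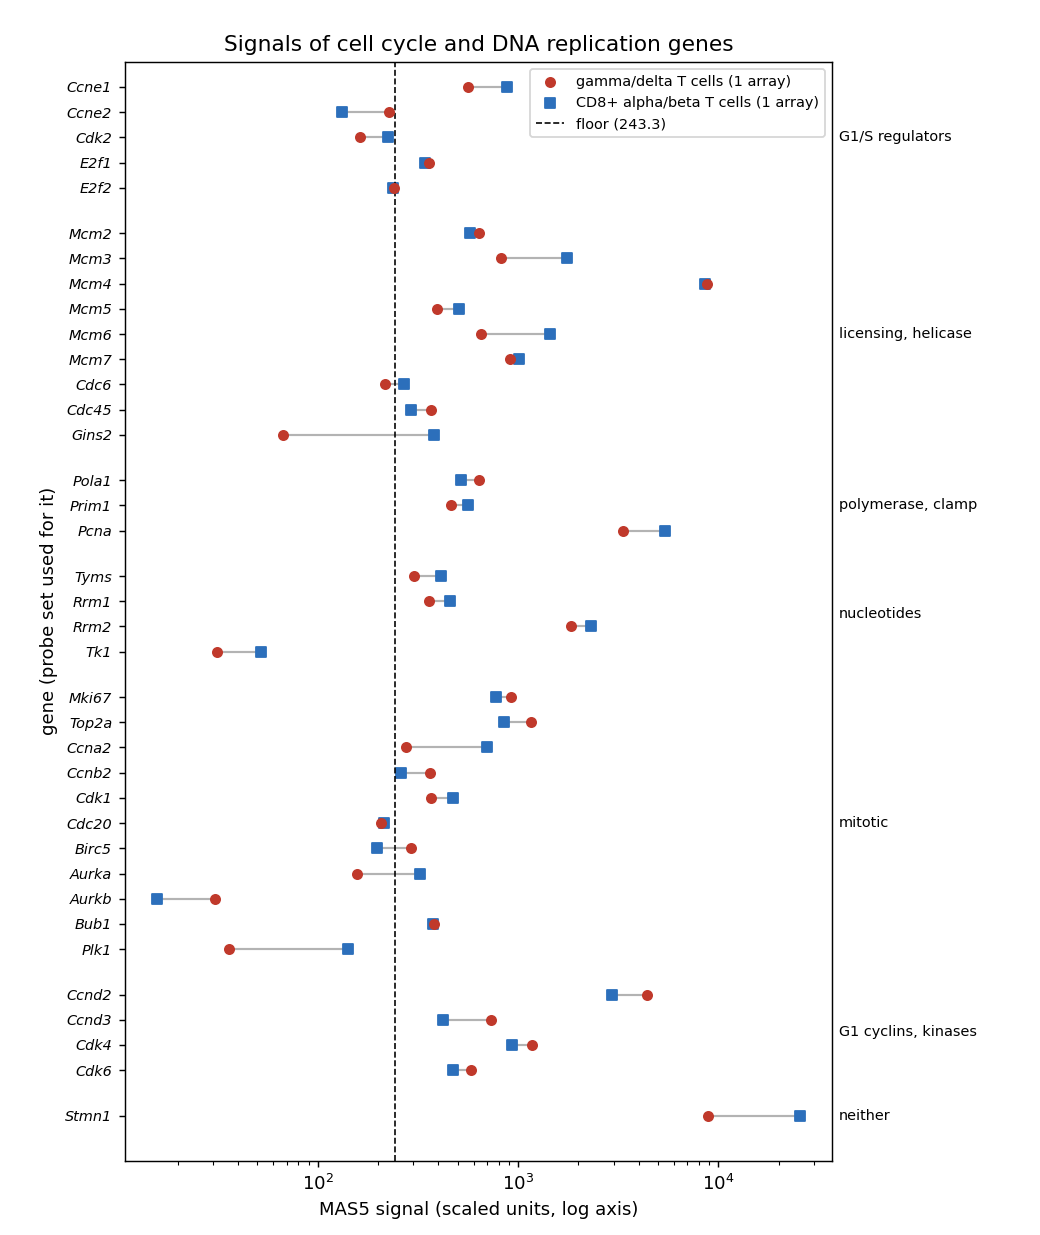
MAS5 signal on a log axis for the probe set used for each of 37 genes, in gamma/delta T cells (circles) and CD8+ alpha/beta T cells (squares), with 1 array each and the floor of 243.3 as a dashed line. Stmn1, Ccna2, Mcm6 and Mcm3 lie furthest apart among genes above the floor on both arrays, and 7 genes lie left of the floor on both.

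The genes of origin licensing and of the replicative helicase were the largest group among the replication genes. Mcm2 to Mcm7 encode the subunits of the ring that unwinds DNA. Mcm6 read 650.2 in gamma/delta cells and 1450.4 in CD8+ alpha/beta cells, a 2.23-fold lower value in gamma/delta cells (log2 ratio -1.16). Its other probe sets had log2 ratios of -0.94 and -0.45, so that all 3 were lower in gamma/delta cells. Mcm3 had signals of 826.9 in gamma/delta and 1766.5 in CD8+ alpha/beta cells on the probe set used, 2.14-fold lower in gamma/delta cells. Its probe sets disagreed: another gave 531.1 in gamma/delta and 947.0 in CD8+ alpha/beta cells, and another 745.8 in gamma/delta and 498.3 in CD8+ alpha/beta cells. Their log2 ratios ran from -1.10 to 0.58 over 4 probe sets, with 2 on each side of 0, so the call of Mcm3 rests on the choice of probe set.

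The other subunits of the ring differed by less than 2-fold on every probe set above the floor on both arrays. Mcm4 read 8743.8 in gamma/delta and 8594.9 in CD8+ alpha/beta cells, a log2 ratio of 0.02, and its second probe set gave 2278.7 in gamma/delta and 2262.6 in CD8+ alpha/beta cells. Mcm7 read 916.0 in gamma/delta and 1012.7 in CD8+ alpha/beta cells, a log2 ratio of -0.14, with all 3 of its probe sets below 0 and the lowest at -0.95. Mcm5 read 392.4 in gamma/delta and 510.1 in CD8+ alpha/beta cells, a log2 ratio of -0.38. Mcm2 had a log2 ratio of 0.15 on the probe set used, with 639.0 in gamma/delta and 576.3 in CD8+ alpha/beta cells, and a bound of -0.32 on the other, which read 36.3 in gamma/delta and 304.5 in CD8+ alpha/beta cells. With its probe sets averaged Mcm2 was at -0.78. The subunits act in equal numbers in the ring, and the ratios here ran from -1.16 for Mcm6 to 0.15 for Mcm2.

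The loading and activating factors lay close to the floor. Cdc6, which loads the ring onto origins, was under the floor in gamma/delta cells at 216.0 and just above it in CD8+ alpha/beta cells at 270.7. Cdc45, which with the GINS complex turns the ring into an active helicase, had 367.1 in gamma/delta and 291.4 in CD8+ alpha/beta cells, a log2 ratio of 0.33, and a bound of -0.16 on its other probe set. With probe sets averaged Cdc45 was at -0.21. Gins2, a subunit of GINS, had 67.2 in gamma/delta and 379.7 in CD8+ alpha/beta cells, which puts it lower in gamma/delta cells by at least 1.56-fold. Its log2 ratio was -1.55 under a floor at the 30th percentile and -2.48 with no floor, each below that of Stmn1 in the same setting. Its second probe set was under the floor on both arrays, at 187.6 in gamma/delta and 49.5 in CD8+ alpha/beta cells. No common direction can be read from these 3 genes.

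Of the polymerase and clamp genes, Pcna and Prim1 were lower in gamma/delta cells and Pola1 was higher. Pcna, the sliding clamp that holds polymerases on DNA, had 3361.9 in gamma/delta and 5425.5 in CD8+ alpha/beta cells, 1.61-fold lower in gamma/delta cells on its 1 probe set. Prim1, the catalytic primase subunit, had 461.9 in gamma/delta and 564.4 in CD8+ alpha/beta cells, and its probe sets had log2 ratios of -0.29 and -0.75. Pola1, the catalytic subunit of polymerase alpha, which works with primase, had 640.0 in gamma/delta and 518.3 in CD8+ alpha/beta cells, and its probe sets had log2 ratios of 0.30 and 0.24. The partners of one complex therefore lay on opposite sides of 0, by less than 2-fold each on the probe set used.

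The 3 genes of nucleotide supply with a ratio were all on the lower side by the probe set used. Rrm1 and Rrm2 encode the subunits of ribonucleotide reductase, which makes deoxynucleotides. Rrm1 had 360.3 in gamma/delta and 459.2 in CD8+ alpha/beta cells, a log2 ratio of -0.35, and Rrm2 had 1828.8 in gamma/delta and 2305.8 in CD8+ alpha/beta cells, a log2 ratio of -0.33. All 3 probe sets of Rrm2 were lower in gamma/delta cells, from -0.39 to -0.33, 2 of them as bounds. Tyms, thymidylate synthase, had 302.2 in gamma/delta and 413.8 in CD8+ alpha/beta cells, a log2 ratio of -0.45. Tk1, thymidine kinase of the cytosol, was under the floor on both arrays, at 31.6 in gamma/delta and 52.2 in CD8+ alpha/beta cells. None of the 3 reached 2-fold by the probe set used, and Rrm1 was at 0.06 with probe sets averaged.

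Among the regulators of S phase entry only Ccne1 and E2f1 had a ratio. Ccne1, which encodes cyclin E1, had 561.6 in gamma/delta and 885.1 in CD8+ alpha/beta cells, 1.58-fold lower in gamma/delta cells, and its second probe set was below 0 too. E2f1 had 360.6 in gamma/delta and 343.2 in CD8+ alpha/beta cells, a log2 ratio of 0.07, and its second probe set, at 155.3 in gamma/delta and 319.2 in CD8+ alpha/beta cells, gave a bound of -0.39 on the other side of 0. Ccne2 (227.1 in gamma/delta and 132.1 in CD8+ alpha/beta cells), Cdk2 (162.7 in gamma/delta and 223.2 in CD8+ alpha/beta cells) and E2f2 (239.8 in gamma/delta and 237.5 in CD8+ alpha/beta cells) were under the floor on both arrays. Signals under the floor carry little order in MAS5 values.

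Mitotic genes were split, with small differences apart from Ccna2. Mki67, the Ki-67 antigen that marks cycling cells, had 925.9 in gamma/delta and 774.3 in CD8+ alpha/beta cells, a log2 ratio of 0.26 on its 1 probe set. Top2a, the topoisomerase that untangles chromosomes, had 1158.3 in gamma/delta and 852.6 in CD8+ alpha/beta cells, a log2 ratio of 0.44, with 0.13 on its second probe set. Both differences are less than the pooled SD of 0.50 between probe sets of 1 gene. Most replication ratios are within that SD too, among them those of Mcm5, Prim1, Rrm1, Rrm2 and Tyms. Those of Mcm6, Mcm3, Pcna and Ccne1 and the bound of Gins2 exceed it. With its 3 probe sets averaged, 1 of them under the floor on both arrays, Top2a was at -0.40, so no direction can be given for Top2a. Ccna2, which encodes cyclin A2 of S phase and G2, had 276.1 in gamma/delta and 698.6 in CD8+ alpha/beta cells, 2.53-fold lower in gamma/delta cells. Its second probe set read 276.9 in gamma/delta and 176.9 in CD8+ alpha/beta cells, the opposite order, so no direction can be given for Ccna2.

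The kinases and regulators of mitosis were near the floor. Cdk1, the kinase that drives mitosis, had 367.2 in gamma/delta and 473.7 in CD8+ alpha/beta cells, a log2 ratio of -0.37. Its partner Ccnb2, cyclin B2, had 363.6 in gamma/delta and 261.6 in CD8+ alpha/beta cells, a log2 ratio of 0.48. Bub1, a spindle checkpoint kinase, had 379.6 in gamma/delta and 374.9 in CD8+ alpha/beta cells, a log2 ratio of 0.02, a bound of -0.52 on its other probe set and -0.57 with probe sets averaged. The kinase and its cyclin lay on opposite sides of 0. Birc5, survivin of the chromosomal passenger complex, had 292.9 in gamma/delta and 198.2 in CD8+ alpha/beta cells, and Aurka, the Aurora kinase of the spindle poles, had 157.7 in gamma/delta and 323.0 in CD8+ alpha/beta cells, each giving only a bound. Cdc20 (206.5 in gamma/delta and 214.4 in CD8+ alpha/beta cells), which activates the anaphase-promoting complex, was under the floor on both arrays. So were Aurkb (30.6 in gamma/delta and 15.8 in CD8+ alpha/beta cells), the kinase partner of survivin, and Plk1 (35.9 in gamma/delta and 141.8 in CD8+ alpha/beta cells), a kinase of mitotic entry.

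The genes of G1 were on the higher side in gamma/delta cells by the probe sets used, although none reached 2-fold. Ccnd2, cyclin D2, was read by 7 probe sets, of which 6 were higher in gamma/delta cells. The probe set used had 4429.0 in gamma/delta and 2961.7 in CD8+ alpha/beta cells, a log2 ratio of 0.58, and the lowest of the 7 was -0.29. Ccnd3, cyclin D3, had 734.4 in gamma/delta and 421.6 in CD8+ alpha/beta cells, 1.74-fold higher in gamma/delta cells, while another probe set had a log2 ratio of -0.49. The third was under the floor on both arrays, at 25.9 in gamma/delta and 88.2 in CD8+ alpha/beta cells. With probe sets averaged Ccnd3 had no ratio, so no direction can be given for Ccnd3. Cdk4, a kinase partner of the D cyclins, had 1180.8 in gamma/delta and 931.6 in CD8+ alpha/beta cells, and its 3 probe sets were all higher, from 0.15 to 0.45. Cdk6, the other partner, had 585.8 in gamma/delta and 475.3 in CD8+ alpha/beta cells, with probe sets from -0.67 to 0.59. Over the 15 probe sets of the 4 genes with a ratio, 12 were above 0 and 3 below, against 50.5% above 0 over all probe sets with a ratio. Of the 15, 7 read Ccnd2, and probe sets of 1 gene are not independent. By gene, 1 (Cdk4) had all of them higher and 3 had them on both sides of 0. Of the 3 lower probe sets, 1 each belonged to Ccnd2, Ccnd3 and Cdk6.

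Stmn1 encodes stathmin, a protein that promotes the disassembly of microtubules. It had 8864.0 in gamma/delta and 25539.6 in CD8+ alpha/beta cells on the probe set used, 2.88-fold lower in gamma/delta cells (log2 ratio -1.53). The second probe set had 715.5 in gamma/delta and 1441.5 in CD8+ alpha/beta cells, a log2 ratio of -1.01. Both probe sets passed the call in the same direction, and no other member with several probe sets had all of them past the call. The probe set used carries the suffix _s_at, which marks probes that may read more than 1 transcript, and the second does not.

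**Figure D3:**
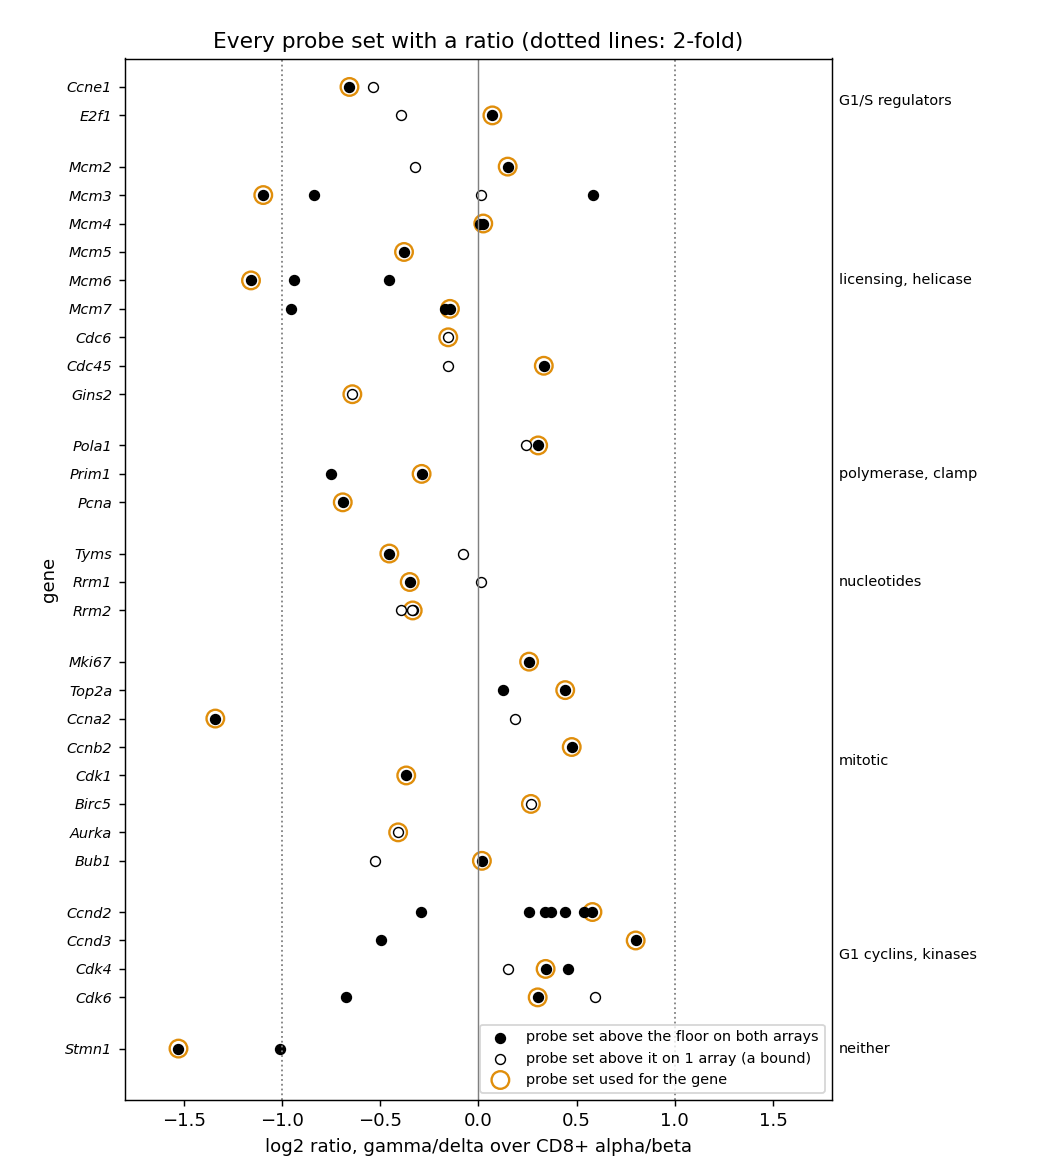
Log2 ratio of gamma/delta to CD8+ alpha/beta signal for each of the 63 member probe sets with a ratio, filled where above the floor on both arrays and open where a bound, with the probe set used ringed and dotted lines at 2-fold. Both probe sets of Stmn1 and all 3 of Mcm6 lie below 0, while those of Mcm3 and Ccna2 lie on both sides.

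Probe sets of the same gene gave the only repeat measurement on these arrays. Of 21 members with 2 or more probe sets with a ratio, 11 had all of them on 1 side of 0. Those lower in gamma/delta cells were Ccne1, Mcm6, Mcm7, Prim1, Tyms, Rrm2 and Stmn1, and those higher were Mcm4, Pola1, Top2a and Cdk4. Mcm4 was close to no difference, at 0.02 and 0.01. Top2a has no direction, because it was at -0.40 with all its probe sets averaged. Of the 13 replication genes among the 21, 6 were all lower, 2 all higher and 5 on both sides. Of the 3 mitotic genes 0 were all lower, 1 was all higher (Top2a) and 2 on both sides. The other 10 had probe sets on both sides, among them the called genes Mcm3 and Ccna2. Counted by probe set, 25 of 35 replication probe sets with a ratio were below 0 (71.4%) and 4 of 11 mitotic ones (36.4%), against 49.5% of all probe sets with a ratio. At 2-fold, 5 of the 63 member probe sets were lower in gamma/delta cells (7.94%), against 4.37% of all, and 0 were higher, against 5.2%.

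The median of the replication genes minus that of the mitotic genes was -0.47 on the log2 scale. It was the same with genes above the floor on both arrays alone, 15 replication and 6 mitotic genes. It has no replicate. The replication median was below 0 in each of 13 ways of processing and the mitotic median in 2 of 13. The difference was below 0 in 14 of 14, from -0.60 to -0.31. These counts include the values as reported, and all settings reuse the same 2 arrays, so they are not independent. Median scaling shifts both medians alike and could not move the difference. Among the further genes described below the order was the opposite, with medians of 0.23 for replication and -0.03 for mitotic genes. With probe sets averaged the medians were -0.49 for replication and -0.19 for mitotic genes, so that both lay below 0.

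**Figure D4:**
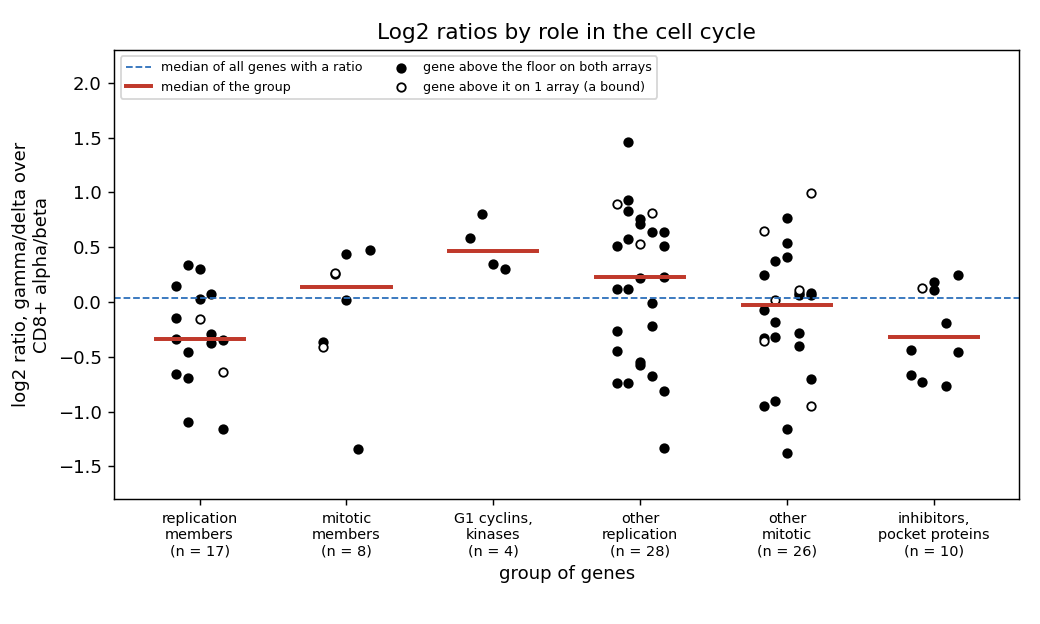
Log2 ratio of gamma/delta to CD8+ alpha/beta signal for each gene with a ratio, by role, with the median of each group as a bar and the median of all genes as a dashed line. The replication members' bar lies at -0.33 and that of the other replication genes at 0.23.

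Further genes of replication, listed beside the members, had a median on the other side of 0. Of these 36 genes 28 had a ratio, with 11 below 0, 17 above and a median of 0.23. The 2-fold call was met by 1 gene in each direction (3.57% each). Over all genes 3.93% were called lower and 5.82% higher, so neither share exceeds that of all genes. Orc6, a subunit of the origin recognition complex, had 291.9 in gamma/delta and 737.3 in CD8+ alpha/beta cells, 2.53-fold lower in gamma/delta cells. Pold1, the catalytic subunit of polymerase delta, had 987.0 in gamma/delta and 359.5 in CD8+ alpha/beta cells, 2.75-fold higher in gamma/delta cells on its 1 probe set with a ratio.

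Of 30 further mitotic genes 26 had a ratio, with 13 below 0, 13 above and a median of -0.03. Cks1b, a small subunit of cyclin-dependent kinases, had 824.0 in gamma/delta and 2141.9 in CD8+ alpha/beta cells, 2.60-fold lower in gamma/delta cells, but 0.03 on the log2 scale on its second probe set. Cdc25b, a phosphatase that activates these kinases, had 2790.6 in gamma/delta and 6240.2 in CD8+ alpha/beta cells, 2.24-fold lower in gamma/delta cells. These 2 were 7.69% of the 26, while 3.93% of all genes were called lower. None was called higher, against 5.82% of all genes. Of 14 cell cycle inhibitors and pocket protein complex genes 10 had a ratio and 0 were called in either direction, with a median of -0.32. Of 10 other E2F and G1 genes 5 had a ratio, and 1 was called lower (20%, against 3.93% of all genes). This was Tfdp2, a dimerisation partner of E2F proteins, 2.13-fold lower in gamma/delta cells (661.3 in gamma/delta and 1405.8 in CD8+ alpha/beta cells). Of its 4 probe sets 2 lay on each side of 0.

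Ratios overlapped between genes with and without the promoter motifs. The 6 replication genes with an E2F motif and a ratio had a median log2 ratio of -0.27, with 5 below 0, and the 9 without the motif one of -0.33, with 6 below 0. Mcm6 and Mcm3, the lowest ratios, and Pola1 at 0.30 hold the motif, while Pcna at -0.69 and Cdc45 at 0.33, the highest ratio, do not. The 6 mitotic genes with a CHR motif and a ratio ran from -0.41 to 0.48. Over all genes, the median log2 ratio was 0.06 for 401 genes with an E2F motif and 0.03 for 9162 without, and 0.05 for 1688 with a CHR motif and 0.03 for 7875 without.

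**Figure D5:**
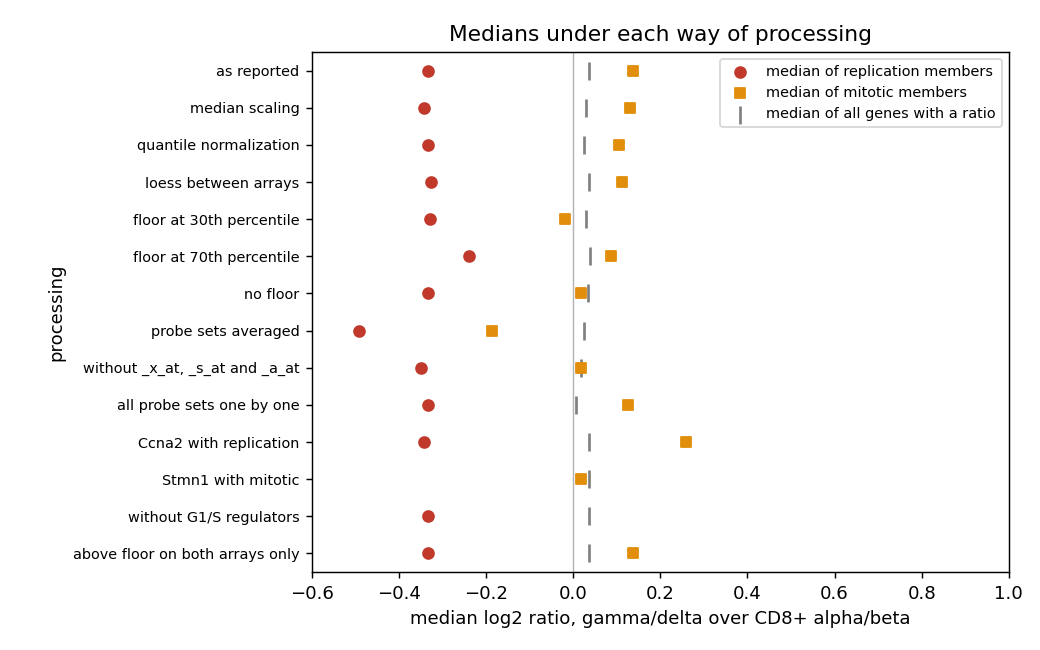
Median log2 ratio of gamma/delta to CD8+ alpha/beta signal for replication members (circles), mitotic members (squares) and all genes (ticks) as reported and under each alternative. A marker is left out where a change of roles does not touch that group. The circles lie between -0.49 and -0.24 and the squares between -0.19 and 0.26.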

How the data were processed

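Total RNA of 2 preparations was labelled with biotin by the one-cycle protocol and hybridised to 1 array each, per the labels. The deposited intensity values, 1 linear signal per probe set, came from the MAS5 algorithm, and the submitters' processing notes name Affymetrix Expression Console 1.0. The trimmed mean of the deposited signals (2% off each end) was 500.003 on both arrays, so both were scaled to one target. MAS5 subtracts a mismatch estimate, and weak signals scatter widely. The number of arrays limits the precision, and detection calls were not used here.

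The values were used as deposited, in Python 3.11.15 with pandas 2.3.3, and the floor, ratio and call were computed as described with the results. Code was tested on simulated data. All members were named, and genes of the other lists when called at 2-fold or, for markers, where a value bears on the members. The inhibitor and pocket protein complex genes named under the other observations fall outside this rule. The members and lists were chosen with earlier results of these data known. Alternatives covered scaling, floor, choice of probe set and the role of single genes. Promoter windows came from RefSeq, and 7 members without one were Ccne2, Mcm4, Gins2, Ccna2, Aurkb, Ccnd2 and Stmn1.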

Additional observations from a re-analysis of the deposited data

How the results depend on the processing

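Median scaling, quantile normalization and loess between the arrays moved no median by 0.1 or more on the log2 scale and left 4 members lower and 0 higher. Under a 30th percentile floor the mitotic median was -0.018, and it was 0.0178 with no floor, 0.0178 when probe sets with the suffixes _x_at, _s_at and _a_at were dropped, 0.0178 with Stmn1 added, 0.26 with Ccna2 counted as a replication gene and -0.19 with probe sets averaged. The replication median was -0.49 with probe sets averaged. The replication minus mitotic difference was -0.31 and -0.33 under floors at the 30th and the 70th percentile, -0.35 with no floor, -0.31 with probe sets averaged, -0.37 without those suffixes, -0.60 with Ccna2 moved and -0.35 with Stmn1 added.

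The count of members called lower at 2-fold was 7 of 37 with no floor (18.9%, against 14.1% of all genes) and 2 of 25 with probe sets averaged (8%, against 3.37%), when Stmn1 and Ccne1 were called. At 1.5-fold, a call chosen after the data were seen, 7 of 30 members were lower (23.3%, against 13.2% of all genes) and 1 was higher (3.33%, against 17%). The higher one was Ccnd3, whose probe sets lay on both sides of 0. Over 8 alternatives Stmn1 was called lower in 8, Mcm6 in 7, Mcm3 in 6 and Ccna2 in 6, and none of these 4 changed sign. Changes of floor and median scaling keep the probe set used for a gene. Single probe sets of Ccna2 and Mcm3 lay above 0, at up to 0.19 and 0.58, so the unchanged sign gives these 2 genes no direction. Of 221 recomputed member values 208 moved by less than the pooled SD of 0.50 between probe sets and 13 by more. Part of the 208 could not move, because a gene above the old and the new floor on both arrays keeps its ratio. With probe sets averaged 5 of 25 members changed sign: Top2a (-0.40), Mcm2 (-0.78), Cdc45 (-0.21), Bub1 (-0.57) and Rrm1 (0.06). Mcm2 was also at -0.32 without the suffixes, and Bub1 at -0.012 after quantile normalization and -0.0094 after loess. With probe sets averaged, the mean of log2 signals was taken before the floor was applied, so signals under the floor entered it. In gamma/delta cells these included 36.3 for Mcm2 and 11.9 for Cdc45. A bound, such as that of Gins2, shifts with the floor by its definition. Why a value moved was otherwise not tested. With 1 array per group no replicate could be left out. No paired analysis was possible because each group holds 1 array.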

Other observations

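One probe set was annotated to both Tyms and its pseudogene Tyms-ps and so stood outside the comparisons. It read 279.0 in gamma/delta and 236.1 in CD8+ alpha/beta cells, close to the floor. Cdkn1b, the inhibitor p27 that holds resting T cells out of S phase, had 11299.3 in gamma/delta and 17909.9 in CD8+ alpha/beta cells, 1.59-fold lower in gamma/delta cells, and both of its probe sets were below 0, at -0.66 and -1.38 on the log2 scale. Lin9, Lin37, Lin52 and Lin54 encode subunits of the complex that represses cell cycle genes in resting cells. They had log2 ratios of -0.73, -0.76, -0.46 and -0.44. All 4 were lower in gamma/delta cells, by less than 2-fold on the probe set used. A second probe set of Lin9 was at -0.03, close to no difference, and a second one of Lin54 at -1.496. The pocket proteins of this complex, Rbl1 and Rbl2, had log2 ratios of -0.20 and 0.25, and the related Rb1 one of 0.11. These genes were singled out after their values were seen.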
